A study of Arabidopsis thaliana with 2 samples.

Results

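In seedling shoots, 10 genes with a role in the response of Arabidopsis thaliana to phosphate shortage were followed, listed by gene identifier. They are PHR1, SPX1, SPX2, SPX3, ACP5, SQD1, SQD2, MGD3, PHO1 and PHT1;1. The set holds the regulator PHR1 as well as genes induced by the shortage, so not every member is a marker of it. Of these 10 genes, 8 have a row in the deposited table of 18617 rows. SPX3 (AT2G45130) and MGD3 (AT2G11810) have none, and no value is given for them. The wild type, accession Col-0, was compared with the bts-1 mutant, which carries a mutant allele of BTS (BRUTUS), an E3 ubiquitin ligase that restrains the iron-deficiency response. Plants of either genotype grew on Murashige and Skoog medium at reduced strength without sucrose, and no label gives a phosphate treatment. Each genotype has 1 library of shoot RNA, so every difference below is between 2 libraries, with no replicate spread and no p-value. The sources used here state neither the age of the plants nor whether plants were pooled. Values are log2(FPKM + 1), where FPKM is the count of sequenced fragments corrected for library size and transcript length. Subtracting the Col-0 value from the bts-1 value gives the log2 ratio. The files hold no read counts, so depth is unknown.

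Plants short of phosphate switch on a common set of genes through PHR1, a MYB-type transcription factor that binds a short imperfect palindrome in its target genes. When phosphate is ample, SPX domain proteins bind inositol pyrophosphates and hold PHR1 away from its targets. The targets release phosphate from organic compounds, replace phospholipids of membranes by sulfolipids and galactolipids, and raise uptake and movement of phosphate. The genes of SPX1 and SPX3 are themselves induced by phosphate shortage, so that their levels are widely used as markers of it.

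Of the 8 measured genes, 2 were at least 2-fold lower in bts-1, the SPX sensor gene SPX1 and the acid phosphatase gene ACP5, and 0 were at least 2-fold higher. For comparison, 18510 genes of the table reached an FPKM of 1 in at least 1 library, and of these 3.63% were at least 2-fold lower and 1.92% at least 2-fold higher. The other 6 genes lay between -0.45 and 0.56 on the log2 ratio scale, with 2 of them below 0, 3 above 0 and PHO1 at 0. The median log2 ratio of the 8 genes was -0.12, against 0.04 over all 18510 genes. The genes thus did not move as a block, as the plot of their levels in the 2 libraries shows. The set pools the regulator PHR1 with genes induced by phosphate shortage, so its median has no single direction in that response.

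**Figure D1:**
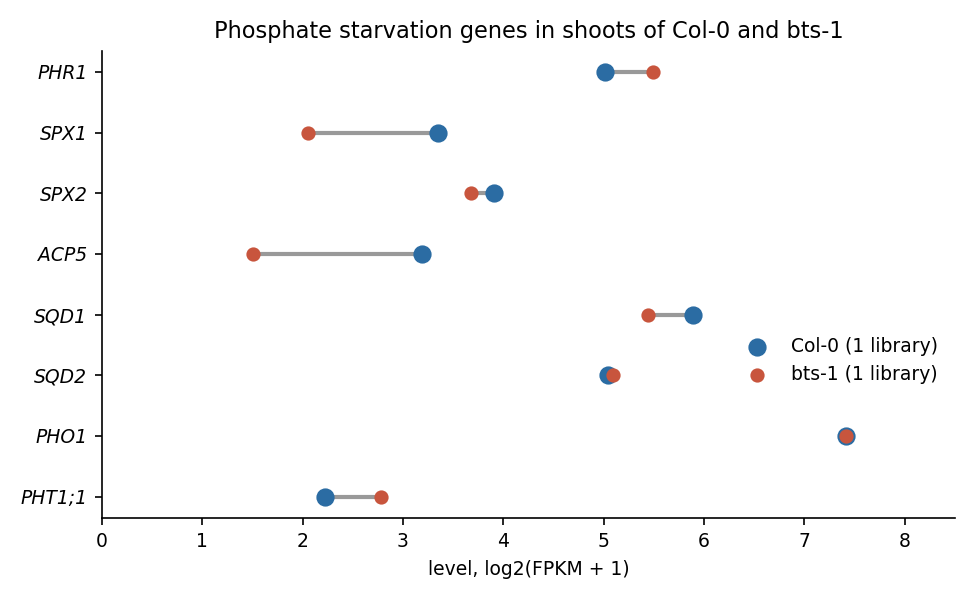
Level of the 8 measured phosphate starvation genes in log2(FPKM + 1) (horizontal axis), in the Col-0 library (large points) and the bts-1 library (small points), each a single library with no error bar. SPX1 and ACP5 show the widest gaps, with the bts-1 point to the left, while the points of PHO1 coincide at 7.42.

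The binding motif of PHR1 was looked up next to the starts of these genes. The stretches printed were picked after their matches and values were seen, so that the motif can be read in its place. The motif searched was GNATATNC, whose reverse complement is the same pattern, so that 1 strand covers both. The window ran from 250 bases before to 50 bases after the gene start annotated by RefSeq in TAIR10.1. The submitters name TAIR10 as their build, and all coordinates here belong to TAIR10.1. SPX1 holds the motif at bases 23 to 30 of its transcript, on the plus strand (chr5:6802293-6802322), and SQD1 holds it at bases 15 to 22, also on the plus strand (chr4:15935376-15935405). For these 2 genes 30 bases of the transcript's leader are shown, with the motif in capitals.

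SPX1: cagagaaaaaaGGATATTCtaattagaaac

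SQD1: ggaataagtaaGAATATGCtttgggcatat

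SPX3, which has no row in the table, holds 2 copies before its start, on the plus strand. They are shown within bases -250 to -61 (chr2:18606160-18606349).

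SPX3: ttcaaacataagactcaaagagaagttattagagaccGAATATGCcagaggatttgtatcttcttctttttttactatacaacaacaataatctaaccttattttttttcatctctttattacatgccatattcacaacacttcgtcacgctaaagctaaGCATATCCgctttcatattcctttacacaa

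Outside the 10 genes, GDPD1, PPsPase1 and ZAT6 hold the motif and are shown because they were also lower in bts-1. The stretch of GDPD1 (minus strand, chr3:350011-350160) covers the 150 bases before the start and holds 2 copies. That of ZAT6 (minus strand, chr5:1217363-1217482) covers the 120 bases before the start, and that of PPsPase1 (minus strand, chr1:27466479-27466598) bases -250 to -131.

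GDPD1: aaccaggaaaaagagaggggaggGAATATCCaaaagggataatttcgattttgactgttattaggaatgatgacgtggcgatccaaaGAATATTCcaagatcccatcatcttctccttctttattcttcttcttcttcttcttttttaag

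ZAT6: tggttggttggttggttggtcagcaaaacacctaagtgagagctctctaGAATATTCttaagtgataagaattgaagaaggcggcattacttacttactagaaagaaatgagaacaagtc

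PPsPase1: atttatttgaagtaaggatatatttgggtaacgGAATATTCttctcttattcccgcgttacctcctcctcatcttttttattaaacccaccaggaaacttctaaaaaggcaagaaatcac

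PHR1 (AT4G28610), the transcription factor itself, stood at 5.01 in Col-0 and 5.49 in bts-1, a log2 ratio of 0.48. Its ratio exceeded that of 88.8% of the tested genes. On the opposite strand, 59 bases of its locus overlap AT4G28600, which stood at 3.92 and 3.91. The library kit keeps strand, and the strand setting used in counting is not given in the labels. PHR1 was thus slightly higher in the library in which SPX1 and ACP5 were lower.

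The SPX genes encode the sensors that hold PHR1 in check. SPX1 (AT5G20150) stood at 3.35 in Col-0 and 2.05 in bts-1, which corresponds to an FPKM of 9.18 and 3.15. Its log2 ratio was -1.29, a 2.45-fold lower value on the FPKM + 1 scale, and 1.94% of the tested genes had a lower ratio. SPX2 (AT2G26660), a close relative that depends less on phosphate supply, stood at 3.91 and 3.68, a log2 ratio of -0.23. In Col-0 the level of SPX1 was slightly below that of SPX2, and in bts-1 the gap was wider. The transcripts of SPX1 and SPX2 align with 72.2% identity over 46.6% of SPX1.

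ACP5 (AT3G17790, listed in the table as PAP17) encodes a purple acid phosphatase that is induced by phosphate shortage and also by oxidative stress and senescence. It stood at 3.19 in Col-0 and 1.51 in bts-1, or an FPKM of 8.10 and 1.84. Its log2 ratio of -1.68 was the lowest of the 8 measured genes, 3.21-fold lower on the FPKM + 1 scale, and 0.951% of the tested genes had a lower ratio. The ACP5 locus shares 122 bases with AT3G17800 on the opposite strand, which was more abundant, at 6.98 and 6.61, with a log2 ratio of -0.38.

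SPX1 and ACP5 are genes of modest level, and ratios of such genes depend on the added pseudocount. Among the 3345 genes with a mean log2 level of 2 to 3, the range that holds SPX1 and ACP5, 4.22% were at least 2-fold lower. With a pseudocount of 5 in place of 1, the log2 ratios were -0.80 for SPX1 and -0.94 for ACP5, short of 2-fold. With 0.1 they were -1.51 and -2.08.

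**Figure D2:**
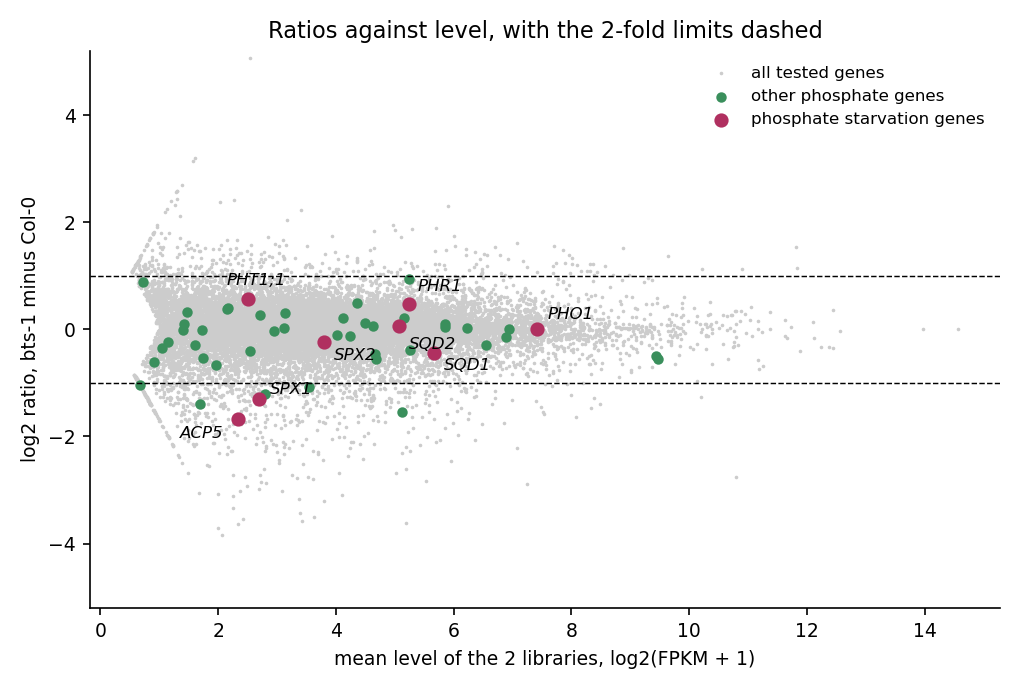
Log2 ratio (bts-1 minus Col-0, vertical axis) against the mean level of the 2 libraries in log2(FPKM + 1) (horizontal axis) for all 18510 tested genes (grey), the 8 phosphate starvation genes (large, named) and 42 other phosphate genes (green). SPX1 and ACP5 lie below the lower dashed line, which marks a log2 ratio of -1.

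The genes of membrane lipid replacement stayed within 2-fold. SQD1 (AT4G33030), which makes the sulfur-containing sugar nucleotide for sulfolipid, stood at 5.89 in Col-0 and 5.44 in bts-1, a log2 ratio of -0.45. An FPKM of 58.3 in Col-0 and 42.5 in bts-1 places SQD1 among the well-expressed genes, above 87.0% of those tested in Col-0. SQD2 (AT5G01220), which transfers that sugar to the lipid, stood at 5.04 and 5.10, a log2 ratio of 0.05. The ratio of SQD2 lay near the median of all tested genes, 0.04.

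The transporter genes PHO1 and PHT1;1 stayed within 2-fold. PHO1 (AT3G23430), which exports phosphate into the xylem of roots, was listed at 7.42 in each library, with identical deposited values. Such ties occur in 20 rows of the table and can arise when values are assigned by rank. PHT1;1 (AT5G43350), a plasma membrane phosphate importer known mainly from roots, stood at 2.22 in Col-0 and 2.78 in bts-1, a log2 ratio of 0.56. This was the highest ratio of the 8 genes, at the lowest Col-0 level among them. The transcript of PHT1;1 aligns with that of its neighbour PHT1;2 at 97.7% identity over 78.4% of its length, so the reads of the pair cannot be told apart with certainty, and PHT1;2 has no row in the table. Root tissue would carry PHT1;1 transcripts, and 2 of 7 root marker genes have a row, CASP1 at 0.91 and 1.33 and PYK10 at 10.06 and 10.19. The summed FPKM of these 2 was 1065 in Col-0 and 1170 in bts-1, nearly all of it PYK10, and the other 5 root markers have no row. Their part in the PHT1;1 value was not tested. In bulk tissue, fewer cells of a type and less RNA per cell cannot be told apart.

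Ordered by deposited Col-0 level, the 8 genes ran from PHO1 through SQD1, SQD2, PHR1, SPX2, SPX1 and ACP5 to PHT1;1. In bts-1, PHR1 stood above SQD1 and SQD2, and PHT1;1 stood above SPX1 and ACP5. SQD2 and PHR1 lay close together in Col-0, and without replicates the order of such neighbours is not established. Levels on chromosome 3, which holds PHO1 and ACP5, carry an added uncertainty. There the log2 level depended on how long the exons of the following gene were, with a slope of -0.60 (SE 0.03) per doubling, whereas slopes elsewhere were -0.02 to 0.03. The same holds for every gene below whose identifier begins with AT3G. When each chromosome 3 level was corrected by exon lengths, PHO1 stood at 6.14 in each library and stayed the highest of the 8 genes, and ACP5 stood at 3.22 and 1.53, a log2 ratio of -1.69.

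For the library labelled bts-1, BTS (AT3G18290) was looked up, which stood at 10.84 in Col-0 and 9.57 in bts-1, a log2 ratio of -1.27. After correction by exon lengths it stood at 6.63 and 5.38, a log2 ratio of -1.25, so its listed level is uncertain. Of the tested genes, 2.07% had a lower ratio, and with 1 library a genotype the difference has no replicate spread. For the shoot label, 6 leaf photosynthesis genes were looked up. They stood at 10.60 to 12.41 in Col-0 and 10.68 to 12.09 in bts-1, with ratios of -0.32 to 0.32. Such levels cannot tell shoots alone from seedlings with some root. Of the root markers given above, PYK10 stood at 10.06 and 10.19, or 9.65 and 9.78 after correction by exon lengths, CASP1 was low, and the other 5 have no row.

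Beyond the 10 genes, 53 genes of the phosphate response were grouped by role into 7 lists, and 42 of them have a row. The lists were written with earlier results of these data known, so counts over them describe these genes only. Of these 42 genes, 5 were at least 2-fold lower and 0 at least 2-fold higher in bts-1, against 3.63% and 1.92% of all tested genes. Their median log2 ratio was -0.07, with 25 ratios below 0 and 17 above. Over all tested genes, 45.1% of ratios were below 0 and 54.8% above. The lists pool genes induced by phosphate shortage with repressors and with genes that depend little on phosphate supply. The pooled median and signs therefore have no single direction in the phosphate response. Of the 5 lower genes, PPsPase1 and ZAT6 reached an FPKM of 1 in Col-0 but not in bts-1, and PPsPase1 was at the floor of bts-1. Without genes at such a floor, 4 of the other phosphate genes were at least 2-fold lower. In the plot of the lists, the genes past 2-fold are spread over phosphatases, lipid breakdown, transcription factors and carbon metabolism.

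**Figure D3:**
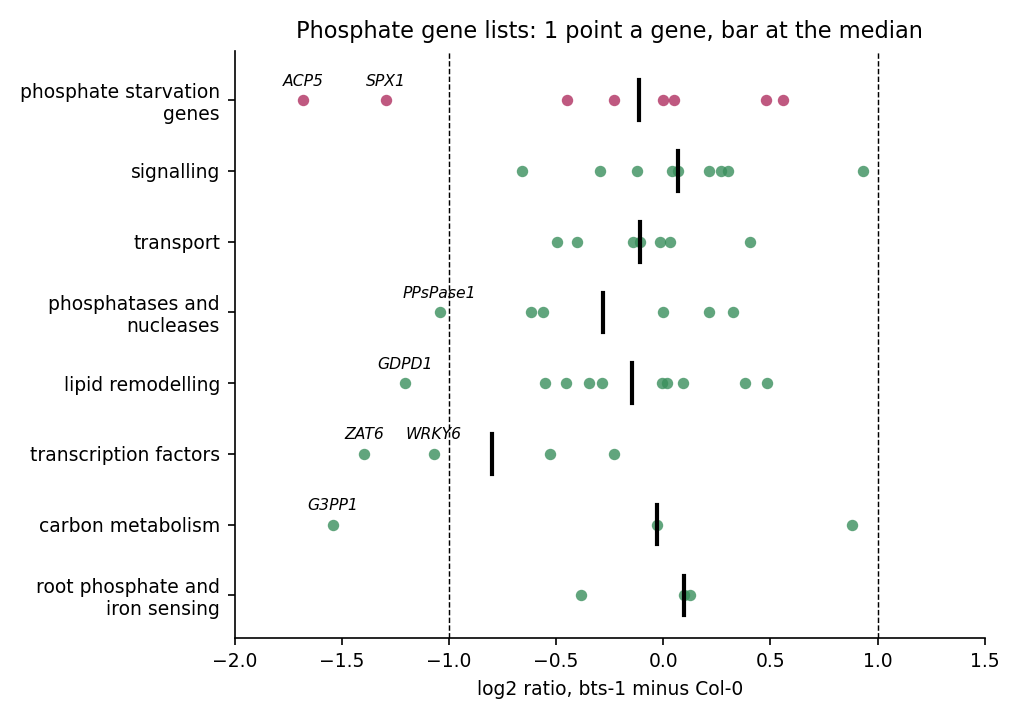
Log2 ratio (bts-1 minus Col-0, horizontal axis) of each measured gene in the 8 phosphate starvation genes and in 7 lists of other phosphate genes. Each point is 1 gene, the black bar is the median of the list, dashed lines mark 2-fold, and genes at least 2-fold lower are named. PPsPase1 is plotted with the floor value of bts-1, where it counts as not detected. The lists were written with earlier results of these data known.

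The gene furthest from 0 in these lists was G3PP1 (AT3G47420), a putative glycerol-3-phosphate transporter induced by phosphate shortage. It stood at 5.89 in Col-0 and 4.35 in bts-1, or an FPKM of 58.3 and 19.3, a log2 ratio of -1.54. G3PP1 lies on chromosome 3, and after correction by exon lengths the ratio was -1.47, at 4.54 and 3.07. G3PP1 is the 1 gene of the 42 that stayed at least 2-fold lower with a pseudocount of 5, at -1.38. In the same carbon metabolism list PPCK1 (AT1G08650) was at -0.03. PPCK2 (AT3G04530), like PPCK1 a kinase that activates phosphoenolpyruvate carboxylase, stood at 0.29 and 1.17, near the low end of detection, and at 0.05 and 0.25 after correction by exon lengths.

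In the lipid list, 1 of 10 measured genes was at least 2-fold lower, against 3.63% of all tested genes, and the median log2 ratio was -0.15. A count of 1 does not set so short a list apart. The gene past 2-fold was GDPD1 (AT3G02040, listed as SRG3), a glycerophosphodiester phosphodiesterase that breaks down deacylated phospholipids. It stood at 3.40 and 2.19, a log2 ratio of -1.21. After correction by exon lengths it stood at 4.20 and 2.91, a log2 ratio of -1.29. The next furthest was DGD1 (AT3G11670), which makes most of the digalactolipid of chloroplasts, with a log2 ratio of -0.55. Its listed level of 9.74 in Col-0 became 5.51 after that correction. MGD2 (AT5G20410), the relative of the unlisted MGD3, stood at 1.96 and 2.34.

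Among phosphatases and nucleases, 1 of 6 genes was at least 2-fold lower, against 3.63% of all tested genes, and the median was -0.28. Here too a count of 1 does not set the list apart. PPsPase1 (AT1G73010, listed as PS2), an inorganic pyrophosphatase gene strongly induced by phosphate shortage, stood at 1.19 in Col-0 and at 0.15 in bts-1, which is the floor of that library. It counts as not detected there, and no fold is given, though with the floor value it passes the 2-fold limit and is in the counts of lower genes. RNS1 (AT2G02990), a secreted ribonuclease, stood at 1.21 and 0.60. PAP26 (AT5G34850), the main vacuolar acid phosphatase and one that depends little on phosphate supply, stood at 6.95 in each library, unlike ACP5.

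The 4 measured transcription factor genes had a median log2 ratio of -0.80, with 4 ratios below 0, against 45.1% over all tested genes. ZAT6 (AT5G04340), a zinc finger factor, stood at 2.39 and 0.99, a log2 ratio of -1.40. WRKY6 (AT1G62300), known as a repressor of PHO1, stood at 4.09 and 3.02, a log2 ratio of -1.07, while PHO1 itself was listed at equal values. ZAT6 and WRKY6 also respond to cold, drought or pathogens, so that their levels are not specific to phosphate. Neither these factors nor the list had a test of difference from other genes.

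Signalling and transport genes stayed within 2-fold. In the signalling list, 6 of 9 measured genes had ratios above 0 and the median was 0.07, near the 54.8% and 0.04 of all tested genes. AT3G01310, a homologue of the yeast inositol pyrophosphate kinase Vip1, was the highest, at 4.78 and 5.71, a log2 ratio of 0.93, or 0.88 after correction by exon lengths. Such kinases make the inositol pyrophosphates that SPX proteins bind. AT4 (AT5G03545), a phosphate-responsive RNA that sequesters a microRNA, was the lowest, at 2.29 and 1.63, a log2 ratio of -0.66. PHO2 (AT2G33770), the conjugating enzyme that leads PHO1 to degradation, stood at 5.83 and 5.87. In the transport list the median over 7 genes was -0.11, with 5 ratios below 0, against 45.1% over all tested genes. PHT2;1 (AT3G26570), the phosphate transporter of the chloroplast envelope, stood at 9.69 and 9.20, a log2 ratio of -0.50. PHF1 (AT3G52190), which helps PHT1 proteins leave the endoplasmic reticulum, had a log2 ratio of 0.41. The 3 measured root sensing genes lay between -0.38 for LPR2 (AT1G71040) and 0.13 for PDR2 (AT5G23630).

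Counted over the window given above, 3 of the 10 phosphate starvation genes (SPX1, SPX3 and SQD1) and 19 of the 53 other phosphate genes hold GNATATNC. Among 27443 nuclear protein-coding genes 6.25% hold it. The lists hold textbook targets of PHR1, so a high share is no independent observation. The tallies that follow were made with the values known and describe these genes only. Of the 7 phosphate genes counted as at least 2-fold lower in bts-1, SPX1, GDPD1, ZAT6 and PPsPase1 hold the motif in this window. ACP5, WRKY6 and G3PP1 have no match, also not within 1000 bases before the start. The 19 measured phosphate genes with a match had a median log2 ratio of -0.34, with 14 below 0 and 4 at least 2-fold lower. These 4 include PPsPase1, which is at the floor of bts-1. The 31 without a match had a median of 0.00, with 15 below 0 and 3 at least 2-fold lower. Over all tested genes, with or without the motif, 45.1% of ratios were below 0. In all tested protein-coding genes the share at least 2-fold lower was 4.08% with the motif and 3.44% without it, with medians of 0.01 and 0.04. With bases before the start only, the 11 genes with a match had a median of -0.34 and the 39 without had -0.003. With the narrower motif GNATATTC or its reverse complement, the 16 with a match had -0.40 and the 34 without had -0.005. The order of the medians turned only in the longest window. Within 1000 bases before to 50 after the start, a window chosen after the data were seen, the 29 phosphate genes with a match had a median of -0.01 and the 21 without a match had -0.23. A match is a run of letters and does not show binding.

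**Figure D4:**
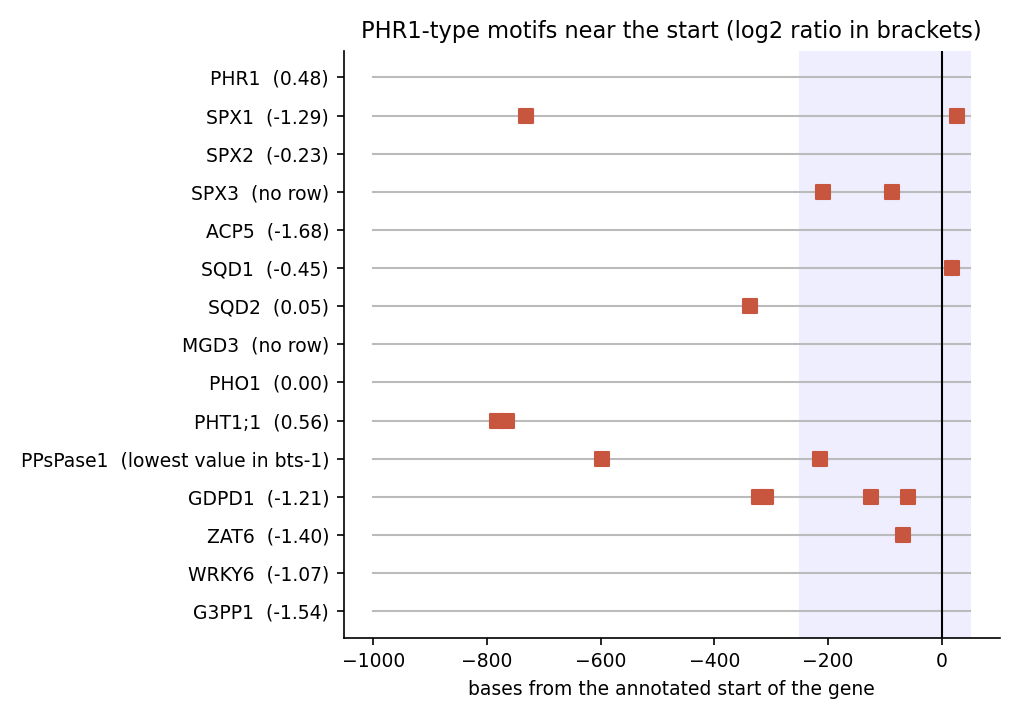
Position of GNATATNC matches (squares) from 1000 bases before to 50 bases after the annotated start (vertical line at 0), in bases, for the 10 phosphate starvation genes and 5 other phosphate genes at least 2-fold lower in bts-1. Brackets give the log2 ratio, bts-1 minus Col-0, except for PPsPase1, which is at the floor of bts-1, and the shaded window from -250 to 50 is the one counted; SPX1 and SQD1 have their match just after the start.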

How the data were processed

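Total RNA of seedling shoots was sequenced as 1 Col-0 and 1 bts-1 library with a strand-keeping kit. For the build TAIR10, HTSeq 0.9.1, TopHat2 2.1.0, Bowtie, cutadapt 1.12 and CASAVA 1.8.2 are listed per the submitters' processing notes, with no order or settings. The deposited values are named normalized FPKM and were read as log2 values of FPKM + 1. The lowest value is 0 in Col-0 (50 genes) and 0.15 in bts-1 (123 genes), treated as not detected. Sorted, the deposited columns are identical within 1e-06 at 79.9% of ranks, as after quantile normalization, a step no label records, so ratios are relative to other genes. With 1 library a genotype no test was run, and genes from 1 upwards in absolute log2 ratio were counted as higher or lower. The 2 rows with neither symbol nor description were left out, and genes had to reach an FPKM of 1 in at least 1 library. For the correction of chromosome 3, each chromosome 3 FPKM was multiplied by the ratio of 2 exon lengths, that of the following gene by identifier (long non-coding, antisense and small nucleolar RNA genes not counted) over the gene's own. Transcripts were aligned with BLAST+ 2.17.0, and ratios computed with Python 3.11.15 and pandas 2.3.3. Known changes put into a copy of the Col-0 values, without noise, were recovered, which checks the arithmetic only. Promoters and lengths came from the RefSeq annotation of TAIR10.1, in which all 10 genes matched by identifier. Named were the 10 genes, BTS, and of each wider list the genes past 2-fold and the 2 largest absolute ratios. MGD2, PAP26, PPCK1 and PHO2 were named after their values were seen. The genes and lists were chosen with earlier results of these data known.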

Additional observations from a re-analysis of the deposited data

How the results depend on the processing

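Under the 10 alternative settings, the median log2 ratio stayed within 0.1 of the reported value for the 8 phosphate starvation genes (-0.15 to -0.09) and for the 42 others (-0.11 to -0.01), and no gene past 2-fold changed sign. Of 419 single-gene values, 384 stayed within 0.1 and 35 moved further, all 35 with another pseudocount. PPCK2 is not among these values for the chromosome 3 correction, because it then fell short of the FPKM filter; its log2 ratio went from 0.88 to 0.20. Of the phosphate starvation genes, the 2 at least 2-fold lower became 0 with a pseudocount of 5 and 1 without chromosome 3. Of the other phosphate genes, the 5 lower ones became 1 with a pseudocount of 5, 3 with a minimum FPKM of 5 and 3 without chromosome 3. The 0 higher ones became 1 with a pseudocount of 0.1 (PPCK2) and 2 at a 1.5-fold threshold. Over all genes, the 356 higher and 672 lower became 735 and 997 with a pseudocount of 0.1, 101 and 254 with 5, 1394 and 1726 at 1.5-fold, and 198 and 464 with a minimum FPKM of 5. The 3 phosphate starvation genes with the motif became 1 with bases before the start only and 5 with 1000 bases before the start, a window added after the data were seen. The 19 other genes with it became 13 with bases before the start only, 15 with the narrower motif GNATATTC or its reverse complement, and 33 in that long window. A larger pseudocount shrinks ratios of low genes by construction. Settings that only leave out genes test fewer, and cannot change the ratio of a gene that stays. The chromosome 3 correction changes genes of that chromosome only. Centring takes the nuclear median of 0.04 from every ratio, and scaling nuclear genes to the same sum shifted ratios by less. Most of the 384 values thus could not move by over 0.1, so their number is no measure of stability. No scaling moved the median of all genes by over 0.1. No paired analysis was possible because each genotype has 1 library, and leaving out a library leaves no comparison. Depth is unknown, so counting error could not be given.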
